A study of Mus musculus with 3 samples.

Results

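The 6 Dlx homeobox genes of the mouse form 3 pairs, and the deposited Ring1B and Zrf1 peaks around each pair are described here. A pair was represented by a fixed window of the mm9 genome. Dlx1 and Dlx2 lie in the window on chromosome 2 from 71340000 to 71410000 (70 kb), Dlx6 and Dlx5 in that on chromosome 6 from 6780000 to 6860000 (80 kb), and Dlx3 and Dlx4 in that on chromosome 11 from 94940000 to 95040000 (100 kb). Every deposited interval that touched a window was a member, whatever its size. This gave 25 intervals of 23437 in all, made up of 19 of the 11790 Ring1B peaks and 6 of the 11647 Zrf1 peaks. All 25 lay wholly inside their window.

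The peaks come from neural progenitor cells that were derived in culture from E14TG2a, a mouse embryonic stem cell line, and kept with EGF and FGF2. Ring1B and Zrf1 were each immunoprecipitated in 1 library from these cells, with antibodies made in the submitters' laboratory, and 1 further library used rabbit IgG and was not analysed here. No genetic change or treatment is given for any of the 3 libraries, and the cell type was not checked against marker genes, since expression was not measured here. The design asked how the DNA binding profiles of both proteins compare. With 1 library per antibody there is no replicate error, and read depth is unknown from intervals alone, so the values below describe these libraries and no comparison between windows carries a test across samples.

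Dlx genes encode homeodomain transcription factors. Some of them, among them Dlx1 and Dlx2, promote the formation and migration of inhibitory (GABAergic) neurons in the ventral forebrain. Members of the family also act in the branchial arches, limbs and skeleton. The members of a pair lie next to each other and share enhancers. Ring1B (gene Rnf2) is the enzyme by which Polycomb repressive complex 1 attaches ubiquitin to histone H2A at developmental regulator genes, often over CpG-rich sequence. Zrf1 (gene Dnajc2) is known to bind histone H2A that carries this ubiquitin.

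In the RefSeq gene table (GRCm38.p6) the order along the chromosome was Dlx1 then Dlx2, Dlx6 then Dlx5, and Dlx3 then Dlx4. No other protein-coding gene lay between the members of a pair. The flanking protein-coding genes were Metap1d and Itga6, Sem1 and Sdhaf3, and Itga3 and Tac4, in the same order of pairs. Non-coding genes overlapped each pair: Dlx1as at Dlx1 and Dlx2, Dlx6os1 and Dlx6os2 at Dlx6 and Dlx5, and Dlx4os and Gm38659 at Dlx3 and Dlx4. That table is of another assembly than the peaks, so no peak was assigned to 1 gene of a pair.

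Start-site sequences of the loci are shown because Polycomb proteins are known for CpG-rich DNA. RefSeq sequences (GRCm38.p6) were matched for 2 of the 6 members, Dlx1 and Dlx2, and for Dlx6os1, Dlx6os2 and Dlx4os, which are non-coding genes at the other pairs. The Dlx6os2 sequence is described below but not printed. Dlx3, Dlx4, Dlx5 and Dlx6 are named only. Each run is the 250 bases before an annotated start, 5′ to 3′ on the gene's strand, with every CG dinucleotide in capitals. Positions in this paragraph are GRCm38.p6 and cannot be set beside the mm9 peak positions, so whether a promoter lies under a peak was not examined. The ranges given are those of the 250 bases and not of the genes. For Dlx1, on the plus strand, they are chr2:71529195-71529444, and for Dlx2, on the minus strand, chr2:71546755-71547004. For the first and second starts of Dlx6os1, on the minus strand, they are chr6:6869534-6869783 and chr6:6861684-6861933. For Dlx4os, on the plus strand, they are chr11:95144803-95145052.
Dlx1: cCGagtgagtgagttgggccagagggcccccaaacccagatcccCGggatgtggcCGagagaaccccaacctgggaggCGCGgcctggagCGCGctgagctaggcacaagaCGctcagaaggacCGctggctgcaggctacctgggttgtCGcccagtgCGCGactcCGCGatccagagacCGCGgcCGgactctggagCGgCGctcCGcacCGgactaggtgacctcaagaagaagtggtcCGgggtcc
Dlx2: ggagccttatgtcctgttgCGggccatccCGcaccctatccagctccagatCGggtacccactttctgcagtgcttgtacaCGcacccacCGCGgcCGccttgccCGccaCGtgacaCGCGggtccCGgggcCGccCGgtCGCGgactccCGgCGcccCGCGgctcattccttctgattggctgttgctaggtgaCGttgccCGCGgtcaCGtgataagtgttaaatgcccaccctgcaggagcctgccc
Dlx6os1, first start: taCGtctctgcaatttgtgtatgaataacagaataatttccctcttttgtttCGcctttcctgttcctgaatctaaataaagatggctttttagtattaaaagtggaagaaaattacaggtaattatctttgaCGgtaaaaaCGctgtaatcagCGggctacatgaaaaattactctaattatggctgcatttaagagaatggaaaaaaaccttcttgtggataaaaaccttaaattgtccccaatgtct
Dlx6os1, second start: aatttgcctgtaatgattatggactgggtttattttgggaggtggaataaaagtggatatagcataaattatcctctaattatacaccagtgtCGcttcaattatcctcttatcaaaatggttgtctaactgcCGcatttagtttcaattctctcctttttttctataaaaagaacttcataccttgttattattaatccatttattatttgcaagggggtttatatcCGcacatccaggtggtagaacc
Dlx4os: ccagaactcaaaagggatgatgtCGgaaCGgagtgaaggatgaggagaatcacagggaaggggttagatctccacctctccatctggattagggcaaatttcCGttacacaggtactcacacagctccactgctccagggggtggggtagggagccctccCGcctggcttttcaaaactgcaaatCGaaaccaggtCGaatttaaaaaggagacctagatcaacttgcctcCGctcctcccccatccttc

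By count, the Dlx1 and Dlx2 promoters were rich in CG, and the printed non-coding promoters were not. Dlx1 held 22 CG dinucleotides (68.0% G or C) and Dlx2 held 24 (66.4% G or C). The median over 32851 promoters of that length was 6 (quartiles 2 and 16), and 14.8% and 12.0% of them held at least as many as Dlx1 and Dlx2. Dlx6os1, the transcript also known as Evf2, held 5 at its first start and 3 at its second, with 33.2% and 34.0% G or C. Dlx6os2, at the same locus, held 7 with 52.4% G or C, and so did Dlx4os. The contrast was less sharp for the ratio of CG observed to CG expected from the C and G content. This ratio was 0.764 for Dlx1, 0.890 for Dlx2, and 0.726 and 0.415 for the first and second starts of Dlx6os1. It was 0.412 for Dlx6os2 and 0.408 for Dlx4os, against a median of 0.373 over all promoters. The motif TAATT, which holds the TAAT core common to many homeodomain sites, was searched on both strands, so that TAATTA counts on each. It occurred 7 times before the first start of Dlx6os1 4 times before the second and 1 time before Dlx6os2, and in neither Dlx1, Dlx2 nor Dlx4os. Of all promoters, 25.03% held it at least once, 1.38% at least 4 times and 0.107% at least 7 times. TAATT holds only A and T, and the median over all promoters was 52.4% G or C, above both Dlx6os1 sequences. These shares are thus not matched for base composition, and whether the motif exceeds what that composition gives was not tested. A match is a string of letters, not a binding site.

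Ring1B peaks lay in all 3 windows, with more bases under peaks at Dlx1 and Dlx2 and at Dlx6 and Dlx5 than at Dlx3 and Dlx4. At Dlx1 and Dlx2, 7 Ring1B peaks covered 20.7 kb, or 29.6% of the window. At Dlx6 and Dlx5, 8 peaks covered 23.3 kb, or 29.1%. At Dlx3 and Dlx4, 4 peaks covered 9.87 kb, or 9.87% of the longer window. Both values can depend on where the window ends. With 50 kb added on both sides, the cover was 23209 bp at Dlx1 and Dlx2 and 14188 bp at Dlx3 and Dlx4. At Dlx6 and Dlx5 it stayed at 23283 bp. A further Ring1B peak lay 1.07 kb outside the Dlx3 and Dlx4 window.

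**Figure D1:**
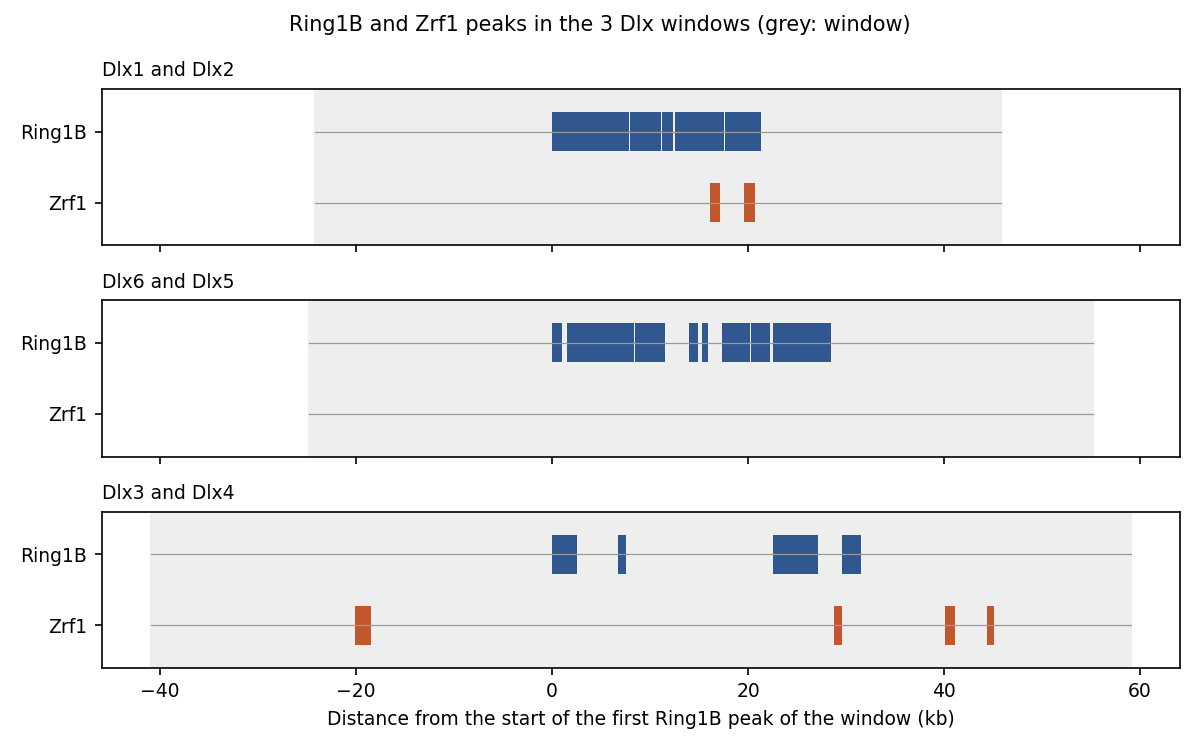
Positions of Ring1B peaks (blue) and Zrf1 peaks (orange) in the 3 windows (grey), in kb from the start of the first Ring1B peak of the window. Ring1B filled 21.4 kb almost without a gap at Dlx1 and Dlx2, where 2 Zrf1 peaks lay in the right-hand part; Dlx6 and Dlx5 had no Zrf1 peak in the window, and at Dlx3 and Dlx4 1 of the 4 Zrf1 peaks touched Ring1B.

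Windows of the same lengths were tiled end to end over the autosomes and the X chromosome, from the first to the last peak of either list. They give the level along these chromosomes, and tiles over the Dlx loci were not left out. Most of these tiles had no Ring1B at all, since 21.4% of the 70 kb tiles held any, 23.3% of the 80 kb tiles and 27.0% of the 100 kb tiles. Of 36701 tiles of 70 kb, 13 (0.0354%) had at least the Ring1B cover of the Dlx1 and Dlx2 window. For the Dlx6 and Dlx5 window the number was 8 of 32111 tiles of 80 kb (0.0249%), and for the Dlx3 and Dlx4 window 164 of 25690 tiles of 100 kb (0.638%). The mean cover was 0.696% in each set of tiles. The windows were placed around genes and were chosen with earlier results of these data known. The tiles fell at fixed steps and can split a block of peaks, so these shares are a description and not a test.

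**Figure D2:**
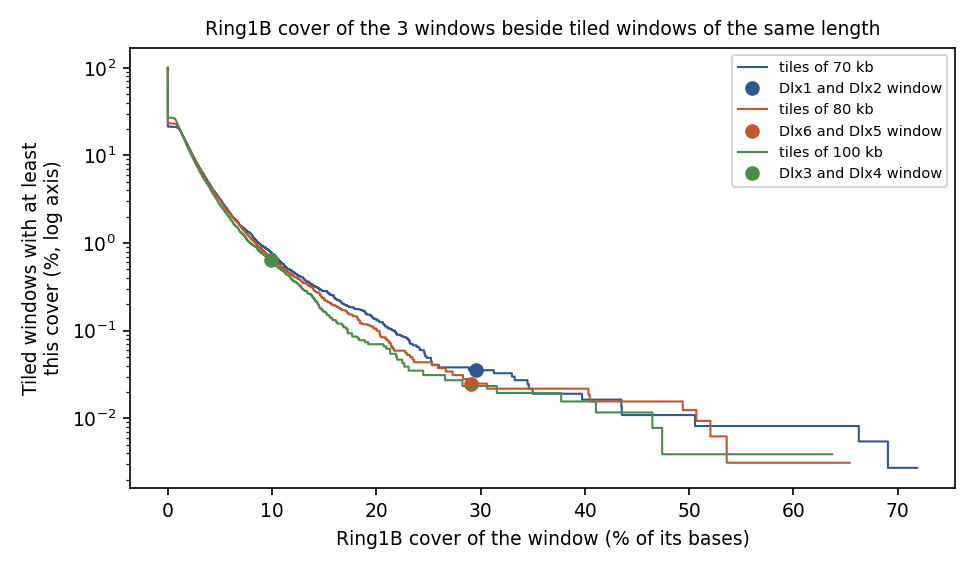
Share of tiled windows (%, log axis) with at least a given Ring1B cover (% of the bases of a window), as a line for each of the 3 tile lengths, with the 3 Dlx windows as points on the line of their own length. The Dlx1 and Dlx2 window (29.6%) and the Dlx6 and Dlx5 window (29.1%) lie far along the tail, and the Dlx3 and Dlx4 window (9.87%) lies at 0.638%.

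At Dlx1 and Dlx2, the pair known for its role in forebrain interneurons, the 7 Ring1B peaks followed each other with hardly a break. They ran from 71364216 to 71385574 on chromosome 2, a span of 21.4 kb of which 97.0% was covered. The first peak was by far the widest at 7827 bp (71364216 to 71372043), and 0.263% of the Ring1B list was at least as wide. The next 3 measured 1680, 1450 and 1115 bp, near the list's median of 1324 bp (quartiles 987 and 1764 bp). The last 3 were wider again, at 2531, 2424 and 3692 bp, and ended at 71385574. The 6 gaps between neighbours measured 126, 62, 71, 221, 30 and 129 bp, which left 639 bp of the span uncovered.

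Of all 11770 gaps in the Ring1B list, 588 (5.00%) were at most 250 bp. The median gap was 60.4 kb, since most peaks stood alone, so the 5.00% is not the share among clustered peaks. Peaks were also joined across gaps of up to 250 bp, a limit chosen after the gaps had been seen. The limit of 7 peaks was likewise taken from the run at Dlx1 and Dlx2. At both limits this was the only run in the whole list, which is a description and not a test. By its span it was second among all runs so joined. With gaps of up to 5 kb, the list formed 10054 runs, 61 of which held 5 or more peaks. Among those 61, the run at Dlx1 and Dlx2 had the highest covered share of its span, against a median of 70.2%. It ranked 9 of 10054 by covered sequence and 16 by number of peaks.

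At Dlx6 and Dlx5, which act in the skeleton, the branchial arches and the forebrain, Ring1B formed 1 run with gaps of up to 5 kb. By eye, and not by a set rule, this run held 2 broad blocks with narrow peaks between them. The 8 peaks ran from 6804794 to 6833277 on chromosome 6, and 81.7% of that 28.5 kb span was covered. A left block was made of a peak of 1027 bp, the widest peak of the window at 6901 bp (6806267 to 6813168) and 1 of 3068 bp. A gap of 2446 bp followed, then 2 narrow peaks of 928 and 688 bp. The right block held peaks of 2796, 1955 and 5920 bp, the last from 6827357 to 6833277. Only 0.399% and 0.687% of the list were at least as wide as the peaks of 6901 and 5920 bp, while 96.5% was at least as wide as the peak of 688 bp.

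The 7 gaps there measured 446, 99, 2446, 340, 1409, 143 and 317 bp. They were longer than at Dlx1 and Dlx2, with a median of 340 against 98.5 bp, and left 5200 bp of the span uncovered. The run ranked 7 of 10054 by covered sequence and 8 of the 61 large runs by covered share. It was remote from other Ring1B peaks: the nearest lay 637 kb before it and 809 kb after it. Of 60 large runs with a run on both sides, this was the only one with no other run within that 637 kb. Over all 10014 such runs, 2.33% were at least that far from the next, and the median was 43.5 kb. At Dlx1 and Dlx2 the nearest other Ring1B peak lay at 33.1 kb, close to the median of 32.7 kb over the large runs.

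At Dlx3 and Dlx4, genes known for roles in epidermis, placenta and tooth and bone (Dlx3), Ring1B lay in 4 separate peaks and not in a block. The first pair of peaks measured 2556 bp (94980949 to 94983505 on chromosome 11) and 769 bp (94987705 to 94988474). The second pair measured 4523 bp (95003512 to 95008035) and 2025 bp (95010492 to 95012517). The gaps were 4200, 15038 and 2457 bp, so that 31.3% of the 31.6 kb span was covered. With gaps of up to 5 kb these were 2 runs of 2 peaks each, which ranked 658 and 177 of 10054 by covered sequence.

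Single peaks, unlike total cover, were of similar size in the 3 windows. The median Ring1B width was 2424 bp at Dlx1 and Dlx2, 2376 bp at Dlx6 and Dlx5 and 2291 bp at Dlx3 and Dlx4, each above the list's median of 1324 bp. Of the 19 Ring1B peaks, 14 were at least as wide as that median, and 3 exceeded 5000 bp: 1 at Dlx1 and Dlx2 and 2 at Dlx6 and Dlx5. In the whole list 117 peaks (0.992%) exceeded 5000 bp. The widths overlapped between all 3 windows, from 1115 to 7827 bp, from 688 to 6901 bp and from 769 to 4523 bp. The window with the least cover, at Dlx3 and Dlx4, had the fewest peaks and none over 5000 bp. Width reflects how the caller divided the signal and is not a measure of strength.

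**Figure D3:**
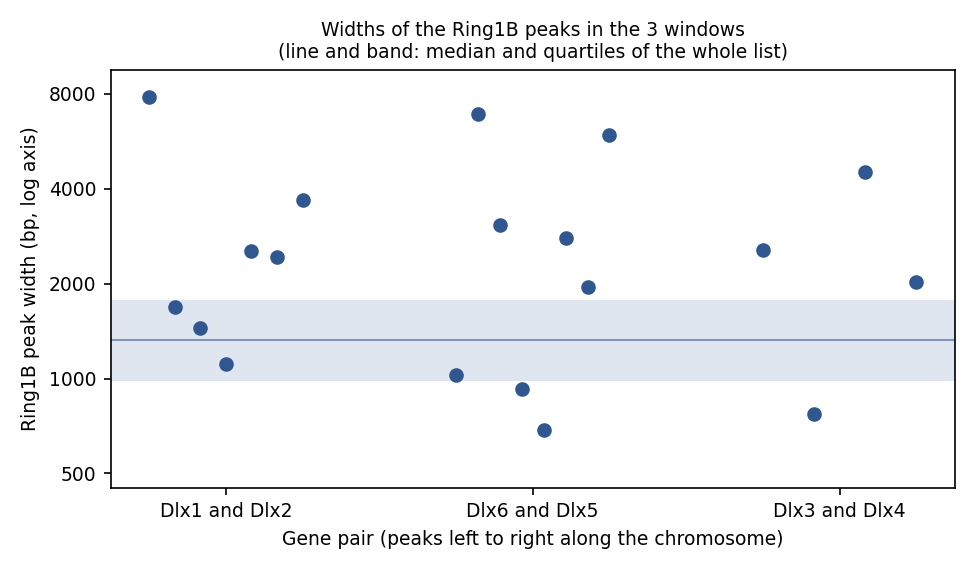
Width of each Ring1B peak (bp, log axis) in the 3 windows, in order along the chromosome, with the median (line, 1324 bp) and quartiles (band, 987 to 1764 bp) of the whole Ring1B list. Each window holds peaks above the band, none of the 4 peaks at Dlx3 and Dlx4 lies within it, and the 3 peaks over 5000 bp lie at Dlx1 and Dlx2 and at Dlx6 and Dlx5.

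Zrf1 peaks differed between the pairs in number and in place. The Dlx1 and Dlx2 window held 2, the Dlx6 and Dlx5 window 0 and the Dlx3 and Dlx4 window 4. Among tiles of the same length, 22.2% of those of 70 kb, 24.4% of those of 80 kb and 28.2% of those of 100 kb held at least 1. Tiles with at least 5% Ring1B cover, as all 3 Dlx windows had, held a Zrf1 peak more often, in 67.9% (70 kb), 70.3% (80 kb) and 75.2% (100 kb) of cases. Of the 995 such tiles of 80 kb, only 8 reached the 29.1% cover at Dlx6 and Dlx5. Among the 61 large Ring1B runs, 43 had no Zrf1 peak in their span, as at Dlx6 and Dlx5. Having 4 or more Zrf1 peaks, as at Dlx3 and Dlx4, was seen in 1.72% of the 100 kb tiles, whose mean was 0.456. The sequence around that window held Zrf1 peaks too, 10 within 500 kb before it and 11 within 500 kb after it.

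At Dlx1 and Dlx2 both Zrf1 peaks lay wholly inside Ring1B peaks. The first, of 1051 bp (71380343 to 71381394), fell within the sixth Ring1B peak of the run and covered 43.4% of it. The second, of 1125 bp (71383785 to 71384910), fell within the seventh and covered 30.5% of it. Both were wider than the median Zrf1 peak of 796 bp, and 23.5% and 19.0% of the Zrf1 list were at least as wide. They stood 2391 bp apart in the right-hand part of the run, the first 16127 bp from its start and the second 664 bp from its end. The widest Ring1B peak, at the left end, was 8300 bp from the nearest Zrf1 peak. In the whole series, 835 of the 1976 Zrf1 peaks on Ring1B (42.3%) lay wholly inside it.

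In the Dlx6 and Dlx5 window no Ring1B peak came near Zrf1. The distances of the 8 peaks to the nearest Zrf1 peak ran from 165 to 188 kb, against a median of 28.7 kb over the whole Ring1B list. Peaks at least as far from Zrf1 as the nearest and the farthest of these 8 made up 12.6% and 10.7% of the list. The nearest Zrf1 peak on the left (6638686 to 6639336) was 141 kb outside the window, and the nearest on the right (7516303 to 7518474) 656 kb. Neither overlapped Ring1B. The absence of a peak here does not show absence of Zrf1, since depth and threshold are unknown.

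The Dlx3 and Dlx4 window had the most Zrf1 peaks, and most of them stood apart from Ring1B. A Zrf1 peak of 1572 bp (94960850 to 94962422) lay 18527 bp from the nearest Ring1B peak. Those of 972 bp (95021039 to 95022011) and 667 bp (95025370 to 95026037) lay 8522 and 12853 bp away, to the right of all Ring1B peaks of the window. The fourth, of 814 bp (95009719 to 95010533), sat between the 2 right-hand Ring1B peaks and overlapped the second by 41 bp, which is 5.04% of the Zrf1 peak and 2.02% of the Ring1B peak. So small an overlap was uncommon, since 8 of the 1956 Ring1B peaks on Zrf1 (0.409%) shared at most 50 bp, and the median was 975 bp.

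**Figure D4:**
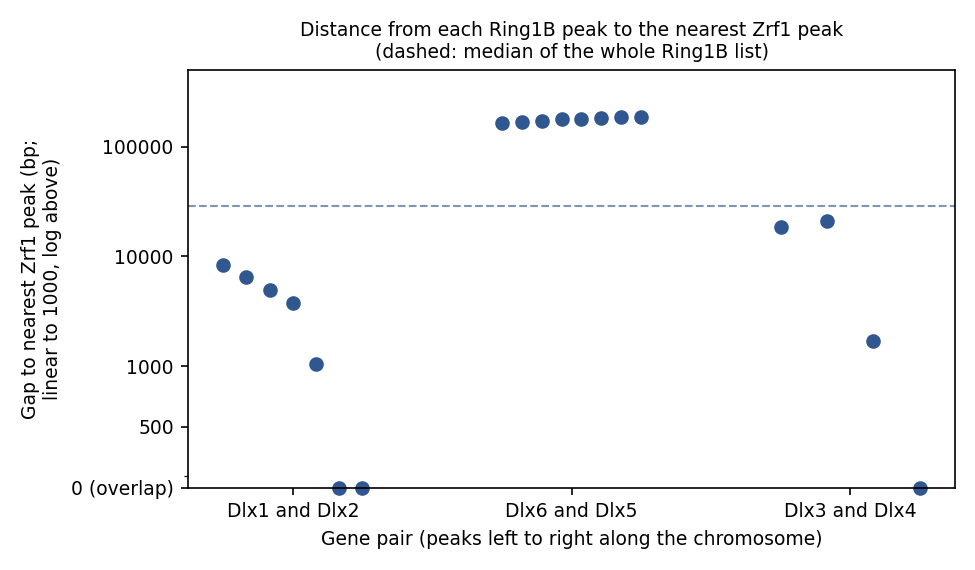
Gap from each Ring1B peak to the nearest Zrf1 peak (bp, on an axis that is linear near 0 and logarithmic above, with 0 for an overlap) in the 3 windows, in order along the chromosome, with the median of the whole Ring1B list dashed (28.7 kb). All 8 peaks at Dlx6 and Dlx5 lie above the dashed line, and the 11 peaks of the other windows lie below it. The 8 distances run to the same Zrf1 peak and are not independent.

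Counted by Ring1B peaks, 2 of 7 overlapped Zrf1 at Dlx1 and Dlx2 (28.6%, exact Clopper-Pearson 95% interval 3.67 to 71.0%), 0 of 8 at Dlx6 and Dlx5 and 1 of 4 at Dlx3 and Dlx4 (25%, exact 95% interval 0.631 to 80.6%). For the count of 0 in 8, a limit of 3 counts allows a share of up to 37.5%, and the exact 95% interval ends at 36.9%. Over the 3 windows it was 3 of 19 (15.8%, exact 95% interval 3.38 to 39.6%), close to the 16.6% of the whole Ring1B list. For Zrf1 it was 3 of 6 peaks (50%, exact 95% interval 11.8 to 88.2%), against 17.0% of the whole Zrf1 list. The intervals of the 3 pairs overlap and cover counting error only, and neighbouring peaks of a block are not independent, so the shares of the pairs cannot be told apart from these counts.

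Counted by bases, Zrf1 lay over 10.5% of the Ring1B-covered sequence at Dlx1 and Dlx2 (2176 bp), 0.415% at Dlx3 and Dlx4 (41 bp) and none at Dlx6 and Dlx5, while the value for the whole list was 11.8%. Among the 61 large Ring1B runs, 18 (29.5%) had at least 1 Ring1B peak on Zrf1, and 7 held 2 or more Zrf1 peaks in their span. The run at Dlx1 and Dlx2 was among those 7, and the run at Dlx6 and Dlx5 was among the 43 without Zrf1. Dlx1 and Dlx2 and Dlx6 and Dlx5 thus had nearly equal Ring1B cover and differed in whether Zrf1 peaks were present, a difference between loci within 1 library each that was not tested.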

How the data were processed

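Chromatin immunoprecipitation and sequencing was done on 1 library per antibody. The authors deposited 2 lists of intervals, assigned to the Ring1B and Zrf1 libraries by the antibody in their names, with 3 columns (chromosome, start and end in bp) and no score, height or p-value. Per the submitters' processing notes, Bowtie 0.12.7, MACS 1.4.2 and the build mm9 were used. The sources used here give neither the threshold nor the control or filters of peak calling, so the lists may differ in stringency, and a caller can divide 1 broad domain into several peaks.

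The gene members, windows and named genes were chosen with earlier results of these data known. All intervals touching a window, the 6 Dlx genes, and neighbouring genes by name were reported; comparisons with other Dlx-related genes need an mm9 annotation and were not run. Width was end minus start. Peaks were shared if they overlapped by at least 1 bp. Cover is the sum of bases under peaks. Exact 95% binomial intervals cover counting error only; a count of 0 was given the limit of 3 counts. Interval functions were checked against base-by-base counts on simulated data. Promoter orientation was checked on 1839 overlapping pairs on opposite strands, all of which matched. Alternatives changed the overlap rule, windows, peak width, interval starts, merging and run gap. The software was Python 3.11.15 with SciPy 1.17.1 for intervals, NumPy 2.4.6 for sums and matplotlib 3.10.9 for figures.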

Additional observations from a re-analysis of the deposited data

How the results depend on the processing

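The settings with starts counted from 1 and with tiles begun at other positions were chosen after seeing the data. Of 96 values under alternatives, 84 stayed within 1.5 times the reported value or, for shares, within its interval. This count says little about stability, since some alternatives could not change a value. Every peak already lay wholly inside its window, and starts counted from 0 give the width as reported. The intervals for shares were also wide, such as 0.631 to 80.6% at Dlx3 and Dlx4. Ring1B cover did so under every alternative run for it. With gaps of at most 100 bp merged, Dlx1 and Dlx2 had 4 Ring1B peaks, at a median of 1898 bp from Zrf1 (3796 bp as reported). With peaks of at least the median width, Dlx6 and Dlx5 had 5 Ring1B peaks, at a median of 586604 bp (180079 bp as reported). The width limit also removed the narrow Zrf1 peak (6638686 to 6639336) from which the reported distances there were measured. Dlx3 and Dlx4 had a median of 1684 bp (10105.5 bp as reported), since fewer Ring1B peaks entered. With windows extended by 50 kb on both sides, Dlx3 and Dlx4 had 8 Zrf1 peaks and a median of 15962.5 bp. The share of Ring1B peaks on Zrf1 fell to 0% at Dlx1 and Dlx2 and at Dlx3 and Dlx4 when 50% of the Ring1B peak had to be covered, and was 71.4% at Dlx1 and Dlx2 within 5 kb of a Zrf1 peak. Run gaps of 2 kb split Dlx6 and Dlx5 into 2 runs, at the gap of 2446 bp, and Dlx3 and Dlx4 into 4. Tiles moved along by part of their length gave 0.0327%, 0.0280% and 0.572% with at least the cover of the 3 windows. No paired analysis was possible because each antibody had 1 library. Depth is unknown, and without an mm9 annotation peaks were tied to gene pairs, not to single genes.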

Other observations

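The sequence around the windows differed between the pairs in the number of peaks. Within 100 kb on either side of the Dlx3 and Dlx4 window there were 5 further Ring1B and 6 further Zrf1 peaks. A Ring1B peak of 2471 bp (94852294 to 94854765 on chromosome 11, 85.2 kb before the window) held a Zrf1 peak of 1206 bp wholly inside it, and the other 5 Zrf1 peaks did not touch Ring1B. Around the Dlx1 and Dlx2 window there were 3 further Ring1B peaks and 1 Zrf1 peak. That Zrf1 peak, of 1061 bp (71467412 to 71468473 on chromosome 2), shared 1048 bp with a Ring1B peak of 1300 bp at 57.2 kb after the window. Around the Dlx6 and Dlx5 window there were no further peaks of either protein within 100 kb. Within 500 kb, the Dlx3 and Dlx4 window had 14 Ring1B peaks before it and 7 after it, the Dlx1 and Dlx2 window 3 and 4, and the Dlx6 and Dlx5 window 0 and 0. For Zrf1 these numbers were 10 and 11, 1 and 4, and 1 and 0, in the same order. The genes at these positions were not analysed here.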
